A study of Mus musculus with 9 samples.

Results

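The 3 vehicle libraries of a study of differentiating mouse hippocampal neural stem cells are described here by the abundance of every gene in them. They were chosen by their treatment label, DMSO, and are 3 of the 9 samples, and all 23420 gene rows of the deposited table were ranked by their mean over the 3. The cells came from the hippocampus of wild-type C57BL/6J mice aged 2 days, were dissociated with trypsin and grown as neural stem cells, and were then moved to a drop-out medium that lacked bFGF and EGF, in which they received the solvent DMSO. The other 6 samples had the same origin and medium and received the compound NAT or P7C3-A20, and they enter no comparison here. The labels call the 3 libraries biological replicates without saying whether they were separate cultures or animals, so their spread may be partly technical. How long the cells had been without growth factors, and how many mice were pooled, is not given in the sources used here.

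Neural stem cells of the young hippocampus resemble radial glia, the elongated progenitors that line the embryonic ventricle, and can give rise to neurons, astrocytes and oligodendrocytes. In culture bFGF and EGF keep them dividing, and taking these factors away lets them leave the cycle and differentiate. Stem cells and astrocytes share much of their gene expression, including lipid carriers, glutamate uptake and intermediate filaments, so a single gene seldom tells them apart. The RNA here was taken from whole cultures, in which fewer cells of a type and less RNA per cell cannot be told apart.

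Levels are given in TPM, a relative unit scaled to the same total in every library, whose values are corrected for gene length and so allow different genes to be set side by side. Where 3 levels follow a gene they are those of DMSO replicates 1, 2 and 3 in that order, and a level with ± is their mean with its SD (n = 3). Reads recovered from the table came to 12967906, 12028821 and 14109316 in the 3 libraries. Across genes, which are not independent replicates, log2 levels of any pair of libraries correlated with r of 0.996 over 23420 rows. A mean of at least 1 TPM was reached by 13536 rows, or 57.8% of all, and 5610 rows (24.0%) were listed at 0 in every library. The median over all rows was 3.90 TPM, and these shares and this median are the background for every gene list below. A row listed at 0 had no recovered read, and a count of 0 allows up to 3 reads at 95% confidence for counting error alone.

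The transcript pool was concentrated in few genes, among them genes known from glia and progenitors. The 10 most abundant rows held 8.09 ± 0.207% of all TPM, the top 30 held 12.7 ± 0.239% and the top 100 held 21.7 ± 0.252%. Rn45s, a precursor of ribosomal RNA, ranked first with 21845, 21699 and 17228 TPM. It was lowest in replicate 3, and it took 4.54, 4.50 and 3.58% of all recovered reads. The first protein gene was Fabp7, a fatty acid binding protein of radial glia, at 12327, 12411 and 11868 TPM. All 3 of its values lay above those of every other protein gene. Ckb, the brain creatine kinase that buffers ATP, followed with 8769, 9045 and 9206 TPM. Tmsb4x, which binds actin monomers, stood at 8152, 7772 and 7904 TPM, and the cysteine protease inhibitor Cst3 at 6548, 6803 and 7432 TPM. Cst3 varied more than its neighbours and was highest in replicate 3.

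Ranks 6 to 20 joined housekeeping genes with genes of glial lipid handling and signalling. The translation factor Eef1a1 had a mean of 6626 ± 196 TPM, with 71.8% of its sequence in 36-base stretches also present in other genes, which makes its level uncertain. The lipoprotein Apoe, a carrier of cholesterol between brain cells, came to 5758, 6149.8 and 6580.2 TPM. Dbi, an acyl-CoA binding protein that is also a peptide ligand at GABA receptors, had 4130.1 ± 76.2 TPM, and Vim, the intermediate filament vimentin, 3791 ± 48.3 TPM. The endothelin receptor Ednrb held rank 11 with 2808 ± 75.2 TPM, above every other receptor of the lists. The secreted factor Ptn, pleiotrophin, stood at rank 13 with 2730.01 ± 21.4 TPM, and the desaturase Scd2, which makes monounsaturated fatty acids, at rank 15 with 2556 ± 39.6 TPM. The long nuclear RNA Malat1 had 2134, 3333 and 2559.6 TPM, highest in replicate 2, and Lars2, the mitochondrial leucyl-tRNA synthetase, had 2652, 2329.7 and 1905 TPM. Lars2 took the same order over the libraries as Rn45s, a relation that was not tested. Whether the reads of the Lars2 row all came from its own transcript was not tested either.

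**Figure D1:**
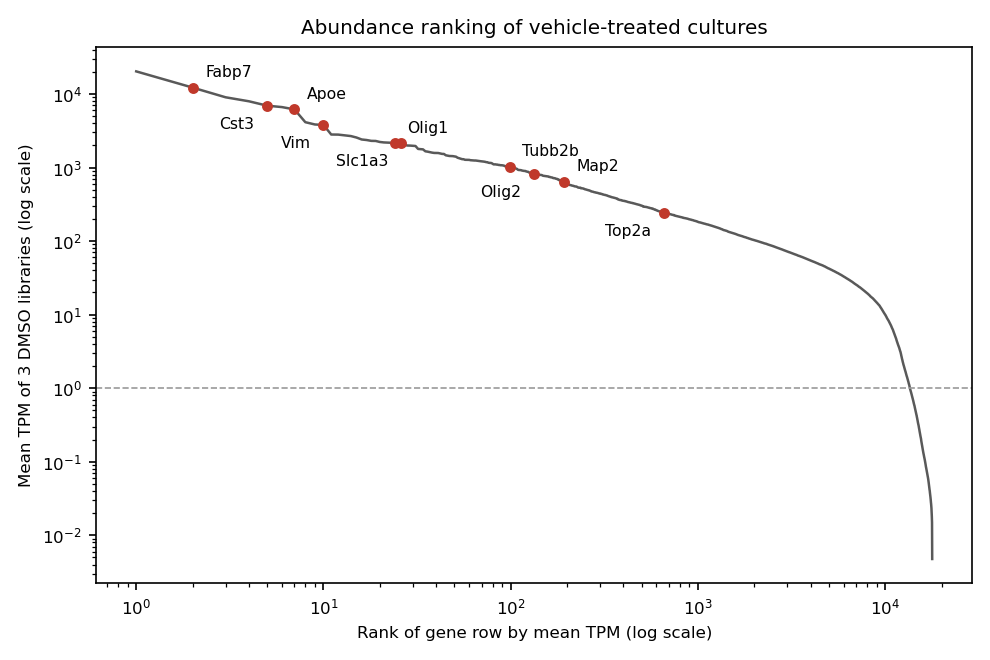
Mean TPM of the 3 DMSO libraries against the rank of each gene row, both on log scales, with 10 lineage markers as red points and 1 TPM as a dashed line. Fabp7 is the second row of 23420 and the markers lie between ranks 2 and 658, well above 1 TPM.

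The promoters of a few of these genes are shown because they span the ranking, from Fabp7 at rank 2 to Emx1, a cortical homeobox gene, at rank 15261. Each line holds the 150 bases before the annotated transcription start in RefSeq (build GRCm38.p6), read in the direction of the gene. They lie at chr10:57784773-57784922 (Fabp7, plus strand), chr12:111672339-111672488 (Ckb, minus strand), chr2:13574161-13574310 (Vim, plus strand), chr15:8710808-8710957 (Slc1a3, minus strand), chr19:59458540-59458689 (Emx2, plus strand) and chr6:85187781-85187930 (Emx1, plus strand). Capitals mark every match, on either strand, to the TATA box core (TATAAA), the CCAAT box (CCAAT), the GC box core (GGGCGG) or the E-box (CACGTG), and in Emx1 a pair of GGGCGG matches overlap.
Fabp7: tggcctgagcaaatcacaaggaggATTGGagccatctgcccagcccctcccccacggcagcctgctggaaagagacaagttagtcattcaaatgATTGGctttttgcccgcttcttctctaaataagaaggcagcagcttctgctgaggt
Ckb: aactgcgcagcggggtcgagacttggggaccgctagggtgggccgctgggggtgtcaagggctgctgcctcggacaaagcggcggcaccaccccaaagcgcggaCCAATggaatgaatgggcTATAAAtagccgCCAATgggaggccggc
Vim: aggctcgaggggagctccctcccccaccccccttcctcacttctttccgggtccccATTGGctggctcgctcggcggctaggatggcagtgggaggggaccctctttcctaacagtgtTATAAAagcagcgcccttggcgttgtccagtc
Slc1a3: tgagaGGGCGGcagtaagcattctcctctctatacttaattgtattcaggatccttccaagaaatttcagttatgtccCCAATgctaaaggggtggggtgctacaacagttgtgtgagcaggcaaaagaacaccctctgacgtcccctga
Emx2: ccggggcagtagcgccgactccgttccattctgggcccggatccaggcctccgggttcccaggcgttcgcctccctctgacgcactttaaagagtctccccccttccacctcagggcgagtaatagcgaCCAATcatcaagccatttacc
Emx1: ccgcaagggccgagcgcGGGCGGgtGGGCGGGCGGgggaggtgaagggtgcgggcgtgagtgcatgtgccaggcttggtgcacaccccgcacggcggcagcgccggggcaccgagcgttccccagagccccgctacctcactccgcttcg

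TATAAA began 28 bases before the start of Ckb and 32 bases before that of Vim, and was not in the windows of Fabp7, Slc1a3, Emx2 or Emx1. The Fabp7 window held a pair of CCAAT matches, both on the opposite strand, at 126 and 56 bases before the start. The Emx1 window had 3 GGGCGG matches and 19 CG pairs, where Ckb had 12, Emx2 11, Vim 7, Fabp7 2 and Slc1a3 2. The promoter set held 32851 starts of 27025 genes, and only the first listed start of each gene was used. Over these 27025 promoters, 8.08% held TATAAA, 25.3% CCAAT, 29.0% GGGCGG and 4.30% CACGTG in the same 150 bases. Of the ranked rows 16375 (69.9%) had a promoter there, 23 of the top 30 among them.

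Motif content changed with abundance. GGGCGG was in 6.90% of 3669 promoters of rows at 0, in 26.9% of those between 0 and 1 TPM, in 47.2% from 1 to 10 TPM and in 57.1% from 10 to 100 TPM. At 1000 TPM or more it was in 32 of 73, or 43.8%. TATAAA ran the other way over most of the range, from 18.2% at 0 through 4.49% from 1 to 10 TPM to 2.46% from 10 to 100 TPM. In the top class it was in 8 of 73 promoters, or 10.96%, a share that rests on few genes. CCAAT stayed between 23.4% and 32.9% in every class. These are shares of genes that share families and base composition, so they carry no test.

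Genes of neural stem cells and radial glia were all present. All 24 members reached 1 TPM, with a list median of 173 TPM, and together they made up 2.41% of all TPM. Fabp7 alone gave 50.7% of that sum. Behind Fabp7, Vim and Ednrb came Slc1a3, a glutamate transporter of radial glia and astrocytes, with 2161, 2098 and 2126 TPM, and the stem cell factor Sox2 with 570.2, 616 and 636 TPM. Sox9, which specifies glia, had 327 ± 19.1 TPM, and Id3, an inhibitor of basic helix-loop-helix factors, 270.1 ± 4.30 TPM. Nestin, Nes, the filament by which such cultures are often identified, came to 219.5, 213 and 195 TPM, and Vim exceeded it 18.2 ± 1.34-fold. Notch1 and its target Hes5 stood at 194 ± 9.69 and 155 ± 15.2 TPM, whereas Hes1, another Notch target, had 29.9 ± 0.392 TPM. Prom1, whose protein is a surface marker of stem cells, had 9.10 ± 0.687 TPM and Lpar1, a lysophosphatidic acid receptor, 1.26 ± 0.263 TPM, the lowest of the list.

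Genes of cell division were still expressed without growth factors. All 24 members reached 1 TPM, and their median was 67.9 TPM. The cyclin Ccnd2 led with 524, 507 and 479.8 TPM. Top2a, the topoisomerase of S and G2 phase, had 266, 244 and 221 TPM and Mki67, the proliferation antigen Ki-67, 196, 174 and 162 TPM. Both were highest in replicate 1 and lowest in replicate 3. At the lower end were Bub1 of the spindle checkpoint with 27.8 ± 1.56 TPM, the S phase cyclin Ccne1 with 16.4 ± 0.510 TPM and thymidylate synthase Tyms with 14 ± 1.70 TPM. Inhibitors of the cycle were present beside them, and all 10 members reached 1 TPM. Cdkn1a (p21) had 189 ± 6.62 TPM, Cdkn1b (p27) 151 ± 6.17 TPM and Cdkn2a, the locus of p16 and p19Arf, 62.5 ± 2.99 TPM.

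Astrocyte genes had the largest sum of the lineage lists, some of which share members. All 26 members reached 1 TPM, 31922 ± 1465 TPM together or 3.19% of the total, with a list median of 869 TPM. Next to Cst3 and Apoe were the metallothioneins Mt1, Mt3 and Mt2 with 2133 ± 103, 1788 ± 67.2 and 1103 ± 43.3 TPM, which bind zinc and copper. The matricellular protein Sparcl1 had 1665, 1631 and 1686 TPM and Aldh1l1, a folate enzyme used to label astrocytes, 1526, 1558 and 1576 TPM. Gfap, the filament of mature and reactive astrocytes, was at 787, 768 and 909 TPM, highest in replicate 3, and exceeded Nes 3.95 ± 0.613-fold. Members of the list also lay well below its median. The water channel Aqp4 had 217 ± 7.23 TPM, clusterin Clu 137 ± 9.32 TPM, the calcium binding protein S100b 77.7 ± 3.76 TPM and the connexin Gjb6 5.72 ± 0.168 TPM.

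Early genes of the oligodendrocyte lineage were present. Of the precursor list 13 of 14 members reached 1 TPM, with a list median of 89.6 TPM. The lineage factors Olig1 and Olig2 had 2107, 2157 and 2208 TPM and 818, 812 and 842 TPM, a ratio of 2.62 ± 0.0410. Olig1 alone gave 36.6% of the list's sum, and Olig2 is also a member of the ventral telencephalic list below. Sox10, which commits cells to the lineage, came to 60.1 ± 4.74 TPM, the PDGF receptor Pdgfra to 101 ± 4.76 TPM, the NG2 proteoglycan Cspg4 to 57 ± 0.907 TPM and Nkx2-2 to 35 ± 1.66 TPM. The receptor Gpr17, found in precursors about to differentiate, had 70.5, 85.5 and 79.3 TPM. Matn4, a matrilin, was the only member under 1 TPM.

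Myelin genes ranged widely, and 10 of 14 members reached 1 TPM. Cnp, an enzyme of myelinating cells that appears early, had 334, 341 and 345 TPM. Mbp, myelin basic protein, stood at 3.45, 3.97 and 4.12 TPM, so Cnp exceeded it 88.9 ± 6.97-fold. Myrf, the factor that switches on myelin genes, had 8.37 ± 0.953 TPM. Mog, Mag, Ermn and Mobp, other genes of this list, were all under 1 TPM, and Mobp was listed at 0 in replicates 2 and 3. The list median was 4.01 TPM, close to that of all rows.

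Neuronal genes were uneven. In their list 25 of 31 members reached 1 TPM, and the list median was 15.5 TPM, above the 3.90 TPM of all rows. The tubulin Tubb2b led with 1032, 1048 and 1003 TPM, though 43.9% of its stretches are shared with other genes and dividing progenitors are known to express it. Map2, which binds microtubules in dendrites, had 647, 625 and 649 TPM, and the growth cone gene Gap43 182 ± 9.72 TPM. Tubb3, the tubulin typical of neurons, was at 49.7, 45.3 and 45.7 TPM, so Tubb2b exceeded it 22 ± 1.17-fold. Dcx, doublecortin of migrating neuroblasts, had 27.7, 25.9 and 27 TPM. Rbfox3, the gene of the nuclear antigen NeuN, came to 1.63 ± 0.299 TPM and Syt1, a calcium sensor of synaptic vesicles, to 2.25 ± 0.0659 TPM. Stmn2, Calb1 and the vesicular transporters Slc17a7, Slc17a6 and Slc32a1 for glutamate and GABA were under 1 TPM, and somatostatin, Sst, was listed at 0.

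Among intermediate progenitor and proneural factors 12 of 21 members reached 1 TPM, a share close to that of all rows. Sox4 was highest with 1042, 1075 and 1131 TPM, with 54.5% of its stretches shared. Btg2, an antiproliferative gene of neurogenic divisions, had 157 ± 9.15 TPM, Sox11 79.2 ± 2.69 TPM and Prox1, a factor of dentate granule cells, 22.1, 25.1 and 23.7 TPM. The proneural factor Neurog2 had 2.85 ± 0.0195 TPM. Eomes, Tbr1 and Neurod1, factors of the glutamatergic lineage, had 0.233, 0.315 and 0.107 TPM, 0.327, 0.411 and 0.300 TPM and 0.347, 0.375 and 0.399 TPM. Neurod2 and Neurog1 were listed at 0. The list median of 1.28 TPM was below that of all rows.

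Most listed genes of microglia, endothelium, mural cells and blood were under 1 TPM. Of the microglia and macrophage list 1 of 14 members reached 1 TPM, the lysosomal gene Cd68 with 7.29 ± 0.831 TPM. The defining genes Cx3cr1, Tmem119, Trem2, C1qa, C1qb and C1qc were listed at 0. Of the endothelial list 3 of 12 members passed, led by Flt1 with 4.13 ± 0.134 TPM, and Cldn5, Cdh5 and Tie1 were listed at 0. Of the mural cell and fibroblast list 3 of 16 members passed. Pdgfra, which precursors of oligodendrocytes also express, gave 86.7% of that sum, and Pdgfrb and Col1a1 were under 1 TPM. In the blood list 1 of 10 members passed, Alas2 with 1.42, 3.42 and 1.11 TPM, and the 5 globin rows were listed at 0. In the ependymal and choroid plexus list 4 of 12 members passed. The ciliary factor Foxj1 had 16.2, 16.9 and 18.4 TPM and Otx2 21, 21.8 and 23.3 TPM, whereas Ttr, the defining transcript of the choroid plexus, had 0.305 ± 0.233 TPM. Neural crest and Schwann cell genes passed in 6 of 10 cases, where Sox10 and Pmp22 are shared with glia of the brain.

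**Figure D2:**
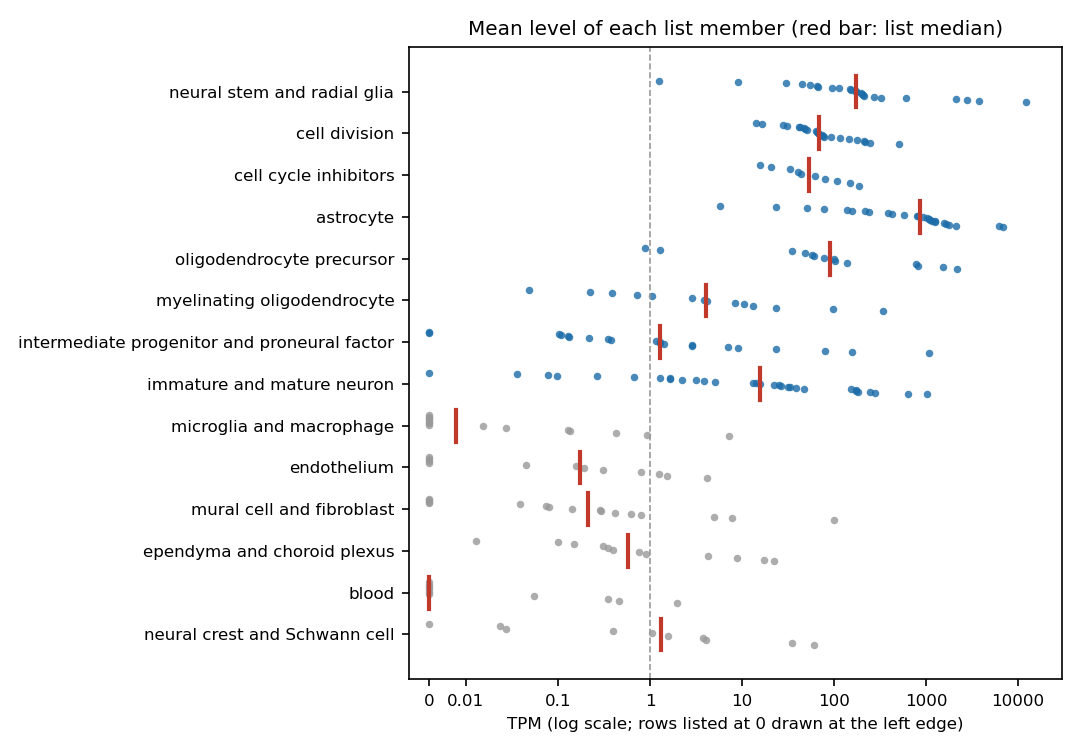
Mean TPM of every member of the lineage lists (blue) and of the lists for other cell types (grey) on a log scale, with rows listed at 0 at the left edge, the list median as a red bar and 1 TPM as a dashed line. The astrocyte and stem cell medians lie above 100 TPM, and the medians of microglia, endothelium, mural cells, ependyma and blood lie below 1 TPM.

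Transcription factors of the forebrain were present. All 9 members of the telencephalic list reached 1 TPM. Lhx2, a selector of cortical identity, had 106, 111 and 117 TPM. The nuclear receptor Nr2f1, graded along the cortex, had 89.6, 97.8 and 92.1 TPM. It exceeded its paralogue Nr2f2 15.9 ± 1.28-fold. Otx1 and Otx2 had 23.4 ± 1.65 and 22 ± 1.18 TPM with overlapping ranges.

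Genes of the dorsal telencephalon and hippocampus ranged from over 200 TPM to 0, and 13 of 21 members reached 1 TPM. The nuclear factor I genes Nfib, Nfix and Nfia, which drive gliogenesis and hippocampal development, had 259.8, 265 and 262 TPM, 176, 201 and 196 TPM and 166, 168 and 172 TPM. Zbtb20, a zinc finger factor of hippocampal fields, was at 64.2, 63.9 and 69.2 TPM and Pax6, a dorsal progenitor factor, at 51.4, 55.7 and 55.7 TPM. Emx2, which patterns the medial cortex, had 32.5, 28 and 24.5 TPM, highest in replicate 1 and lowest in replicate 3. Its paralogue Emx1 had 0.369, 0.398 and 0 TPM, and Lef1, a Wnt effector needed for the dentate gyrus, 0.588, 0.761 and 0.486 TPM. The signals of the cortical hem, Wnt8b and Wnt3a, were at 0.0820 ± 0.0891 TPM and listed at 0, with Wnt2b at 3.04 ± 0.511 TPM.

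In the ventral list, which Olig2 leads, 7 of 14 members reached 1 TPM. Gsx1 had 12.5, 11.1 and 9.88 TPM and exceeded Gsx2 7.84 ± 0.450-fold. Dlx2 and Dlx1, of the ganglionic eminences, had 2.86 ± 0.473 and 1.29 ± 0.177 TPM. Nkx2-1, of the medial ganglionic eminence, was at 0.231 ± 0.0938 TPM, and Lhx6 and Isl1 were listed at 0. In the diencephalic and midbrain list 8 of 22 members passed. The Wnt effector Tcf7l2 had 44.9, 47.8 and 50.5 TPM and the next, Irx1, 4.59 ± 0.453 TPM. Tcf7l2 is also known from oligodendrocytes.

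Genes of the hindbrain and spinal cord were at or near 0. In the list for those regions 0 of 30 members reached 1 TPM and 22 were listed at 0. Of all 39 Hox rows, the genes that set position along the hindbrain and trunk, 0 reached 1 TPM and 30 were listed at 0, and the highest, Hoxc11, had 0, 0 and 0.217 TPM. For scale, 6 of 1102 olfactory receptor rows, or 0.544%, reached 1 TPM, a family used mainly in the nose.

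**Figure D3:**
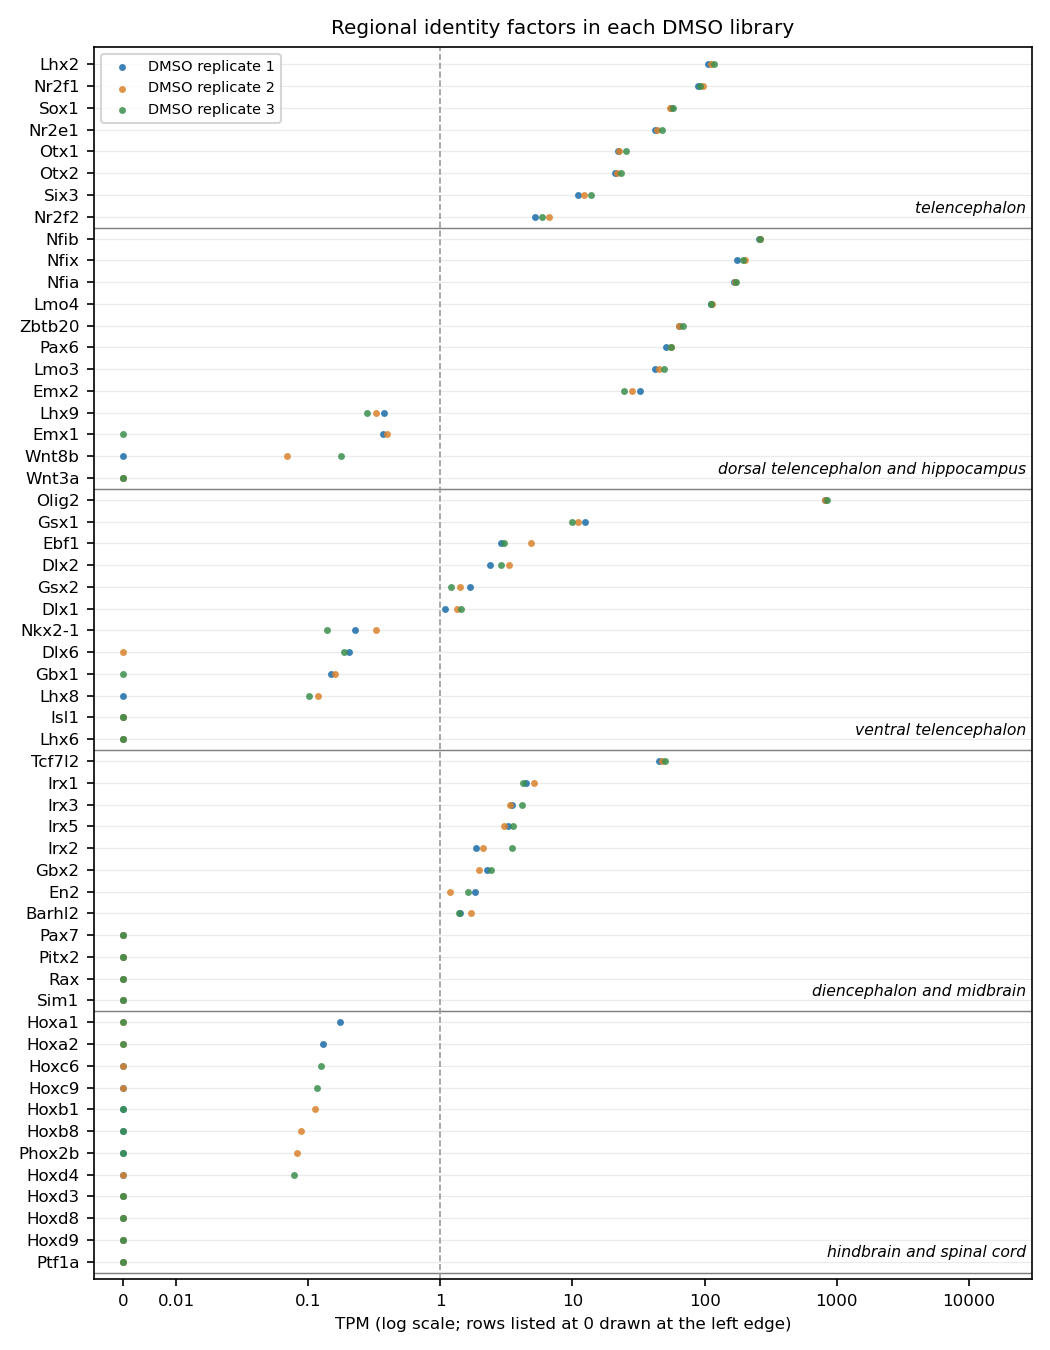
TPM in each DMSO library (colours) for up to 12 genes of each regional list on a log scale, with rows listed at 0 at the left edge and 1 TPM as a dashed line. Telencephalic genes lie between 5.204 and 117 TPM, the 8 highest dorsal genes lie above 24 TPM and the 4 lowest below 1 TPM, with the members between them not drawn, and hindbrain and spinal cord genes do not exceed 0.175 TPM.

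For glutamate uptake, Slc1a3 exceeded Slc1a2, the transporter that dominates in mature astrocytes, 8.83 ± 0.132-fold, with Slc1a2 at 241, 238 and 244 TPM. The neuronal transporter Slc1a1 had 36.6 ± 0.692 TPM. For GABA uptake, Slc6a11, a glial transporter, had 886, 959.7 and 960.5 TPM, and Slc6a13 0.607 ± 0.286 TPM. The list had 6 of 13 members at or above 1 TPM, with the vesicular transporters Slc17a6, Slc17a7, Slc17a8 and Slc32a1 all below it.

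Among the ion pumps and cotransporters 20 of 21 members reached 1 TPM. Atp1b2, a sodium pump beta subunit known from glia, had 1208, 1245 and 1298 TPM and exceeded the widely expressed Atp1b1 8.66 ± 0.187-fold. Slc12a2, which loads cells with chloride, exceeded Slc12a5, which extrudes it in mature neurons, 12.4 ± 0.0989-fold (41.4 ± 0.463 against 3.34 ± 0.0627 TPM). The bicarbonate cotransporter Slc4a4 had 383 ± 11.6 TPM and Atp2a2, the calcium pump of the endoplasmic reticulum, 227 ± 6.75 TPM. Kcnj10, the potassium channel of astrocytes, was the most abundant potassium channel row with 227, 220.5 and 229.9 TPM, a family looked up after the values were seen. The gap junction gene Gja1, connexin 43, was at 1258, 1212 and 1286 TPM, which exceeded Gjb6 219 ± 8.84-fold.

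Carriers of nutrients had lower levels. The glutamine transporter Slc38a3 had 192, 189.9 and 205 TPM, and Slc7a5 and Slc3a2, the chains of a large amino acid exchanger, had 165 ± 4.60 and 154 ± 5.30 TPM. The glycine transporter Slc6a9 had 148 ± 6.77 TPM, though 42.2% of its stretches are shared. Glucose carriers were lower, with Slc2a3 at 20.1, 20.5 and 20.2 TPM and Slc2a1 at 15.8, 17.9 and 16.9 TPM. The lactate carrier Slc16a1 had 53 ± 2.87 TPM. Slc16a3, the lactate exporter of glycolytic cells, was at 1.36 ± 0.372 TPM. Lipid efflux was represented by Abca1 at 277, 282 and 286 TPM, 76.9 ± 14.8-fold above Abcg1. Over the genome, 231 of 369 solute carrier rows reached 1 TPM (62.6%), close to the share of all rows.

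Among receptors, Ednrb had 2823, 2726 and 2874 TPM and exceeded Ednra 197 ± 13-fold. Ntrk2, the receptor for BDNF, whose truncated form is known from astrocytes, had 405, 414 and 433 TPM and the collagen receptor Ddr1 309.7, 335 and 349.7 TPM. The TPM table gives no isoforms, so the form of Ntrk2 is unknown. Receptors for the withdrawn factors were present. Egfr, the EGF receptor, had 253, 243 and 241 TPM, and the FGF receptors Fgfr3, Fgfr1 and Fgfr2 had 147, 156 and 166 TPM, 92.5, 101 and 105 TPM and 31.4, 31.5 and 35.5 TPM. Fgfr3 lay above Fgfr1 in all 3 libraries, whereas Pdgfra and Fgfr1 overlapped. The genes of the factors themselves were low, Fgf2 at 3.32 ± 0.930 TPM and Egf at 1.56 ± 0.360 TPM, while Tgfa, another EGF receptor ligand, had 36 ± 0.295 TPM and Fgf1 58.7 ± 2.01 TPM.

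Receptors of developmental signals were broadly expressed, with 30 of 33 above 1 TPM. The BMP receptor Bmpr1a had 176, 159 and 169 TPM, the Wnt receptor Fzd3 139.7, 132 and 136 TPM, the Hedgehog receptor Ptch1 126, 119 and 129.6 TPM and Il6st, the shared receptor chain of the CNTF and LIF family, 121, 115 and 122 TPM. The TGF-beta receptors Tgfbr1 and Tgfbr2 were apart, with 33.1 ± 1.48 and 3.26 ± 0.448 TPM.

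Among ionotropic glutamate receptors the AMPA subunit Gria2, which limits calcium entry, led with 189.8, 189.8 and 208 TPM, followed by the kainate subunit Grik5 with 93.5, 102 and 113 TPM. Grin1, the obligatory NMDA subunit, had 2.46, 2.65 and 2.63 TPM, and Grin2a and Grin2b were under 1 TPM, so Gria2 exceeded Grin1 76 ± 3.93-fold. For GABA, the metabotropic subunit Gabbr1 had 189.6, 200.4 and 222 TPM and its partner Gabbr2 18.2 ± 0.381 TPM. The GABA-A receptor subunit Gabrg1 had 53.7 ± 2.24 TPM.

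Among other receptors coupled to G proteins, Adcyap1r1, the PACAP receptor, had 537, 549 and 571 TPM and Gpr56, an adhesion receptor of neural progenitors, 507, 525 and 521 TPM. The sphingosine receptor S1pr1 had 214 ± 5.69 TPM and Grm5, a metabotropic glutamate receptor, 169 ± 4.54 TPM, 2.41 ± 0.113-fold above Grm3. The dopamine and serotonin receptors Drd1a, Drd2, Htr7 and Htr2c, were under 1 TPM.

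**Figure D4:**
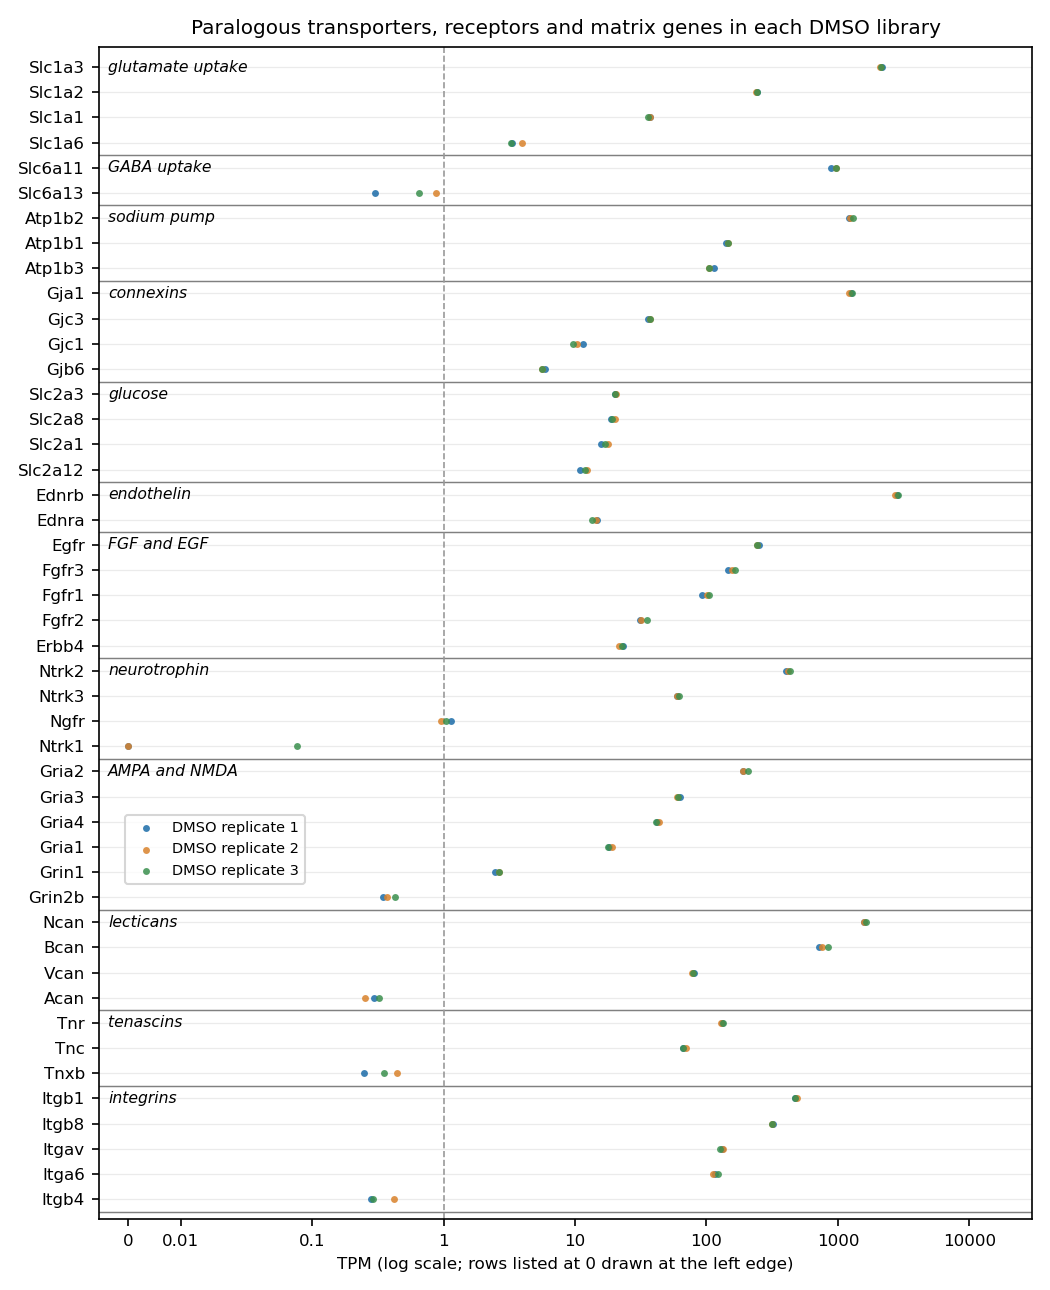
TPM in each DMSO library (colours) for related transporters, receptors and matrix genes, grouped by family on a log scale, with rows listed at 0 at the left edge and 1 TPM as a dashed line. Slc1a3, Gja1 and Ednrb lie above the others of their families in every library, while the 4 glucose carriers shown lie between 10.9 and 20.5 TPM.

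One secreted factor dominated the ligand list. Ptn, a heparin-binding growth factor, had 2726, 2711 and 2753 TPM, 75.5% of the summed list, and exceeded its only relative Mdk 183 ± 4.20-fold. Vegfb followed at 116, 119 and 122 TPM, then the Notch ligand Dll1 at 114, 113 and 122 TPM and Wnt7b at 99.4, 104 and 112 TPM. Wnt7b exceeded Wnt7a 2.33 ± 0.0664-fold. In that list 33 of 55 members reached 1 TPM. Bmp7 was the highest BMP with 50.05 ± 3.12 TPM, while Bmp4 and Bmp2 had 0.551 ± 0.234 and 0.878 ± 0.338 TPM. Igf1, Igf2, Shh, Lif and Cntf were under 1 TPM, with 76.0% of Igf2's stretches shared. By contrast Igfbp2, which binds insulin-like growth factors, had 1255, 1369 and 1323 TPM; it stands outside the rule for named genes and was picked with its level known.

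Chondroitin sulfate proteoglycans were among the most abundant matrix genes. The lectican Ncan had 1568, 1585 and 1629 TPM and Ptprz1, a receptor phosphatase that carries such chains, 1536, 1517 and 1529 TPM. Bcan had 724, 752 and 835 TPM, highest in replicate 3, and exceeded Vcan 9.76 ± 0.709-fold, while Acan, the lectican of mature perineuronal nets, had 0.291 ± 0.0353 TPM. Tnr exceeded Tnc 1.95 ± 0.0819-fold, at 131 ± 2.14 against 67.4 ± 1.97 TPM. Of matricellular genes Mfge8 had 763, 775 and 855 TPM, Sparc 472, 480.1 and 510.1 TPM and Smoc1 376, 384 and 399.8 TPM, and fibronectin, Fn1, 16.1 ± 1.09 TPM.

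The highest collagen was Col4a5 of basement membranes with 63.3, 61.2 and 63 TPM, and Col1a1, Col1a2 and Col3a1 were under 1 TPM. The laminin chains Lamb2 and Lamc1 had 61.1 ± 3.62 and 50.5 ± 1.67 TPM. Integrin genes were led by Itgb1 at 472, 486 and 474 TPM and Itgb8, which activates latent TGF-beta, at 323, 316 and 314 TPM. After Cst3, the second protease inhibitor was Serpine2, an inhibitor of thrombin, with 2203, 2176 and 2138 TPM. Metalloprotease genes were lower, Adam9 at 202 ± 0.286 TPM and Mmp15 at 187 ± 1.10 TPM, and Mmp9 and Mmp3 were at 0.0653 ± 0.0635 TPM and listed at 0.

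Genes of energy metabolism had list medians above that of all rows, and those of the mitochondria were above that of glycolysis, a list that also holds isozymes of other tissues such as Pgk2. Of nuclear genes of the respiratory chain 37 of 39 reached 1 TPM, with a median of 429.9 TPM and 2.10% of all TPM. Atp5b, the catalytic subunit of ATP synthase, had 2442, 2423 and 2345 TPM and the cytochrome oxidase subunit Cox4i1 1400.2, 1452 and 1432 TPM. The tissue-restricted subunits Cox6a2 and Cox4i2 had 0.228 ± 0.198 and 0.198 ± 0.173 TPM. All 32 members of the pyruvate and citric acid cycle list passed, malate dehydrogenase Mdh2 with 770.3, 740.1 and 725 TPM. Among the ranked rows 0 were recognised as mitochondrially encoded, so such genes could not be analysed here.

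Glycolytic isozymes differed in level. Aldoc, the astrocyte aldolase, had 1114, 1149.5 and 1223 TPM and exceeded Aldoa 2.01 ± 0.105-fold. Ldhb exceeded Ldha 2.42 ± 0.181-fold, at 772 ± 14.7 against 320.2 ± 20.3 TPM, with 37.4% and 29.4% of their stretches shared. Hexokinase Hk1 had 102 ± 1.72 TPM and exceeded Hk2, an inducible form, 55.8 ± 3.58-fold, and phosphofructokinase Pfkm exceeded Pfkl 8.59 ± 1.25-fold. Enolase Eno1 was listed at only 2.48 ± 1.06 TPM, but 75.9% of its stretches occur in other genes, so its level is uncertain. Pkm and Gapdh, at 859 ± 23.6 and 811 ± 23 TPM, share 45.6% and 30.8%.

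Genes of fatty acid and sterol synthesis were abundant. Scd2 had 2515, 2562 and 2593 TPM and exceeded Scd1 10.3 ± 0.343-fold. The desaturases Fads2 and Fads1, which make polyunsaturated fatty acids, had 887, 895 and 915 TPM and 519.9, 536 and 549 TPM. All 22 sterol genes passed, with Hmgcs1, the enzyme at the entry of the pathway, at 694, 662 and 638 TPM. Of fatty acid oxidation genes 19 of 20 passed, led by Acadl at 532, 533 and 529.97 TPM. Oxct1, which uses ketone bodies, had 334 ± 9.49 TPM.

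Amino acid enzymes included those known from astrocytes. Glud1, which oxidises glutamate, had 1312, 1337 and 1427 TPM and Glul, the glutamine synthetase of astrocytes, 1034, 1046 and 1112 TPM. Gad1 and Gad2, which make GABA, had 13.1 ± 1.33 and 1.27 ± 0.329 TPM. In serine synthesis Psat1 and Phgdh had 288 ± 13.7 and 240.4 ± 11.8 TPM, the latter with 71.3% of its stretches shared. Ckb gave 88.5% of the creatine and energy buffering sum, and Gatm, the enzyme of the committed step of creatine synthesis, had 539, 509 and 519.7 TPM.

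Antioxidant genes were also abundant, with a median of 176 TPM and 28 of 29 members above 1 TPM. The ferritin chains Ftl1 and Fth1 had 1775, 1742 and 1775 TPM and 1269.7, 1297 and 1319 TPM, though 93.8% of Ftl1's stretches are shared with other genes. Thioredoxin Txn1 had 1303, 1337 and 1179 TPM, lowest in replicate 3, and the peroxiredoxin Prdx6 897, 881 and 924 TPM.

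**Figure D5:**
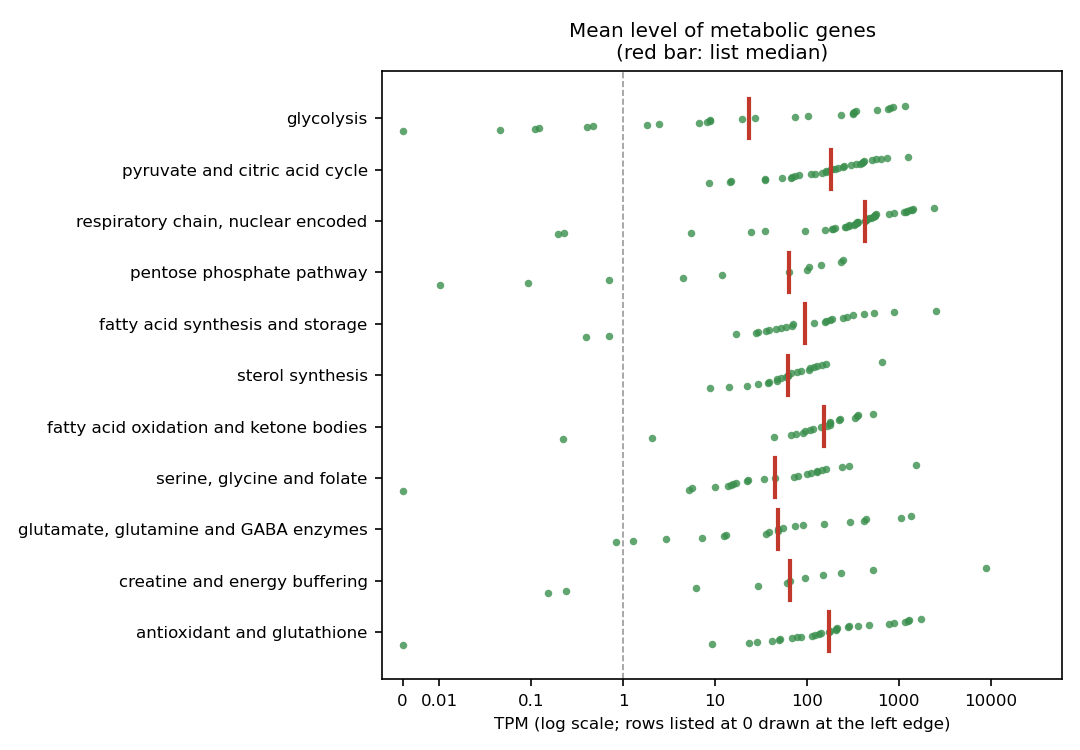
Mean TPM of every member of the metabolic lists on a log scale, with rows listed at 0 at the left edge, the list median as a red bar and 1 TPM as a dashed line. The respiratory chain has the highest median, 429.9 TPM, and glycolysis the lowest, 23.7 TPM.

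The libraries differed little. Over 7917 rows with a mean of at least 20 TPM, the median SD of log2(TPM + 1) was 0.05 and the 95th percentile 0.14. The 10 rows of largest spread were all small RNAs with few reads, such as Snord42b at 11.8, 12.7 and 54.3 TPM from 3, 3 and 15 reads. Among 7767 protein-coding rows the largest spread, 0.35, belonged to Nr4a1, an immediate early nuclear receptor, with 61.7, 43.6 and 70.7 TPM. It was lowest in replicate 2. The early oligodendrocyte gene Bcas1 had 18.3, 28.3 and 22.8 TPM and was highest in replicate 2.

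Cell division genes moved together between replicates. Of 22 members at or above 20 TPM, 18 were highest in replicate 1 and lowest in replicate 3 (81.8%), against 18.2% of all 7917 rows. Their median level in replicate 3 was 86.7% of that in replicate 1, and the summed list came to 2684, 2524 and 2337 TPM. The astrocyte list had the opposite order in 13 of 25 members (52%), against 22.0% of all rows, and a median of 107% in replicate 3 relative to replicate 1. Its sum came to 30734, 31473 and 33558 TPM. The order of the astrocyte list was also found in 5 of 7 telencephalic, 9 of 16 proteoglycan and 6 of 12 oligodendrocyte precursor members. The citric acid cycle and sterol lists had the order of the division genes in 13 of 29 and 9 of 20 members.

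Over all rows, the level in replicate 3 relative to replicate 1 rose with GC content. Rows with transcripts under 42% GC had a median of 98.2% in replicate 3 relative to replicate 1, and rows of 54% GC or more had 105%, over 7511 rows with a known GC content (94.9%). The division genes, with a median GC content of 47.2%, had 86.7% where all rows of 46 to 50% GC had 99.7%. For the astrocyte genes, at 52.4% GC, these values were 107% and 101%. Rn45s and Lars2 had the order of the division genes. The part of GC content and of Rn45s in these differences was not tested, and no batch is given in the labels.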

How the data were processed

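RNA from 9 samples of mouse neural stem cells was sequenced, and the 3 DMSO libraries are described. The libraries were made with the TruSeq chemistry of Illumina, per the labels' protocols, with no word on strand, so a gene and an antisense or overlapping neighbour cannot be separated. The deposited values are TPM, scaled to the same total in each library. Bowtie 0.12.2, mm8 and mm9 are named, with no role or order, in the submitters' processing notes. The counter, annotation and filters were not stated there. Row names that read as dates, 27 in all, were left as they stood.

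Whole reads were recovered from the steps of low TPM values for all 19302 rows with any value (tolerance 0.001 reads), which gave 12967906, 12028821 and 14109316 reads. They set the depth and entered 2 alternatives. In simulated data for 6000 rows, 99.7% were recovered exactly. No groups are compared, so no test was run. Levels are means over 3 libraries with SD, and spread is the SD of log2(TPM + 1).

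The members and the 47 gene lists were chosen with earlier results of these data known, and so support nothing independently. Named genes are the 30 most abundant rows, the 10 markers, the 6 highest and up to 6 lowest members of each list, the 10 rows of largest spread at or above 20 TPM, and genes behind a count of 5 or fewer. Others were named after their values were seen. Some genes of the lists are counted but not reported here by name. Shared sequence is the share of 36-base stretches of a gene's longest GENCODE M21 transcript that occur in other genes. It was 20% or more in 105 of 1055 genes. Promoters are from RefSeq, with the first listed start of each gene. Alternatives were other thresholds, TPM rescaled without ribosomal and small RNA rows, the median in place of the mean, recovered reads, another pseudocount and each library left out. The work was done in matplotlib 3.10.9, pandas 2.3.3 and numpy 2.4.6 under Python 3.11.15.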

Additional observations from a re-analysis of the deposited data

How the results depend on the processing

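Leaving out each library in turn changed the order of 1 pair. The ratio of Pdgfra to Fgfr1, 1.02 with all 3 libraries, lay between 0.959 (without DMSO replicate 1) and 1.05, and the cause was not tested. In all, 203 of 204 such ratios, 3 for each pair, kept their direction. Without ribosomal and small RNA rows (789 rows, 2.37% of TPM), the top 100 rows held 20.3% of TPM, and the stem cell, oligodendrocyte precursor and neuron lists held 2.47%, 0.604% and 0.324%. As shares of recovered reads, which are not corrected for length, the top 100 rows held 20.01%, and the stem cell, astrocyte, oligodendrocyte precursor and neuron lists held 1.72%, 2.23%, 0.866% and 0.449%. On that scale 45 of 47 list sums moved by more than 1 SD between libraries, so the lists' shares depend on whether levels are divided by length. The median spread of 0.05 became 0.0617 with a minimum of 5 TPM and 0.0577 with none, and lay between 0.0394 and 0.0460 with 1 library left out. The number of rows at or above the threshold was 16325 at 0.1 TPM and 11349 at 5 TPM, and 13085 rows reached 1 TPM in every library. The alternatives restricted to protein-coding rows or to rows with at least 100 reads per library were chosen after seeing the data and gave a median spread of 0.05. Depth limits the rows under 1 TPM, where a few reads decide the value. No paired analysis was possible because no groups are compared.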

Other observations

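Fos and Egr1, immediate early genes that cells transcribe within minutes of a stimulus, were abundant in the vehicle cultures. Fos, a subunit of the factor AP-1, had 894, 724 and 911 TPM and Egr1, a zinc finger factor, 814, 730.01 and 844 TPM. Both ranked among the top 150 rows, at 129 and 143, and both were lowest in replicate 2, as Nr4a1 was with 61.7, 43.6 and 70.7 TPM. These genes were chosen after their values were seen.

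RNA of Y-linked genes was present in all 3 libraries. The genes Eif2s3y, Ddx3y, Kdm5d and Uty of the mouse Y chromosome had 136 ± 14.8, 45.8 ± 2.78, 44.7 ± 1.46 and 27.2 ± 0.491 TPM (SD, n = 3). Xist, the RNA of the inactive X chromosome in females, had 0.181, 0.157 and 0.155 TPM in replicates 1, 2 and 3. These genes too were chosen after their values were seen.

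Some genes had nearly equal levels in the libraries, and those named here were picked for their small spread among 7767 protein-coding rows. Tnfrsf21, the death receptor DR6, had 353.9, 354.1 and 353.7 TPM, the smallest spread of any protein-coding row at or above 20 TPM. The metalloprotease gene Adam9 had 202, 201 and 202 TPM and the mitochondrial isocitrate dehydrogenase Idh2 162, 163 and 162 TPM. Among so many rows and so few libraries, values this close can arise by chance within counting error. Whether these genes are more stable than others was not tested.

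Fatty acid binding proteins differed widely. Fabp7 exceeded Fabp5 6.23 ± 0.311-fold, with Fabp5 at 2084, 1899 and 1899 TPM, and Fabp3 had 1.69, 2.92 and 3.73 TPM. Forebrain POU factors were also present, with Pou3f3 at 238, 256 and 257 TPM, Pou3f4 at 56.4, 56.6 and 50.7 TPM and Pou3f2 at 46.8, 47.6 and 50.4 TPM, while Pou4f1, of sensory neurons, had 0.502 ± 0.171 TPM.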
